A study of Vulpes lagopus with 12 samples.

Results

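The nuclear receptors for thyroid hormone and retinoic acid were examined in blood of the Arctic fox, together with their corepressor NCOR1 and the thyroid hormone target KLF9. The genes were THRA, THRB, RARA, RARB, RARG, RXRA, RXRB, NCOR1 and KLF9. A probe set was taken when its single gene symbol in the array annotation was 1 of these 9 symbols, whatever its value. This gave 27 of the 42924 tested probe sets. All 9 genes had at least 1 probe set, 6 of them more than 1, and RefSeq annotates all 9 symbols in the Arctic fox. NCOR1 had 8 probe sets, THRA and THRB 4 each, RARA and RARB 3 each, RXRB 2, and RARG, RXRA and KLF9 1 each.

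The series held 1 array whose title names a canine control and 11 arrays of Arctic foxes (Vulpes lagopus), all Affymetrix arrays designed on the dog. The other labels of the control array do not differ from those of a fox, and no label but the title tells what RNA was on it. If it was dog RNA, species and the match to dog probes differ along with the array, and so does tissue if it was not from blood. They cannot then be told apart from a difference in expression. The design statement says the foxes were examined for mercury and for polychlorinated biphenyls (PCBs), long-lived chlorinated chemicals of industry, but no label gives the exposure, age, sex or treatment of a single fox. Foxes are therefore not grouped, and are numbered 1 to 11 in the order of the series. Nothing in the labels says that the 11 samples came from 11 animals.

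Thyroid hormone receptors (from THRA and THRB) and retinoic acid receptors (from RARA, RARB and RARG) are transcription factors that sit on DNA as pairs with a retinoid X receptor (RXRA, RXRB). Without hormone they hold a corepressor complex built on NCOR1, which brings the histone deacetylase HDAC3 to the gene, and with hormone they exchange it for coactivators. In blood, retinoic acid acting through the RARA protein is known for driving maturation of granulocytes. Some PCB metabolites resemble thyroid hormone and bind its plasma carrier transthyretin, which is why this pathway is followed in exposed wildlife.

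Values are log2 expression per probe set, and 1 unit is a doubling. Array medians were 6.85 on the control and 7.06 to 7.17 in the foxes. The SD over the probe sets of an array was 2.11 on the control, 1.93 to 2.02 in foxes 9, 10 and 11, and 1.60 to 1.79 in foxes 1 to 8. Foxes 9, 10 and 11 also stood apart in the GAPDH 3' minus middle difference, a measure of RNA and target quality. It was -0.08 on the control, 0.42 to 1.08 in these 3 foxes and 2.56 to 3.19 in foxes 1 to 8. For the probe sets of the 9 genes and the pathway genes named below, calls that change without them are given. Counts of marker and pathway genes are not given without these 3 foxes. Marker lists of blood cells and of organs were read on the same arrays. Of 5 measured neutrophil markers 4 were lower on the control and none higher, and the mean of the list was 7.03 on the control and 10.08 to 12.76 in the foxes. Of 5 measured monocyte markers 4 were lower, and of 5 platelet markers 3. All 6 measured B cell and all 3 measured erythroid markers were lower, and none in these lists was higher. Of all 15115 genes 44.6% were lower and 18.5% higher. Of 5 measured intestinal markers all 5 were higher on the control, RBP2 of the retinoid genes below among them (mean 13.41, against 5.79 to 6.06 in the foxes), and of 6 liver markers 5 were (14.09, against 7.28 to 7.87). Of 5 measured muscle markers 4 were higher on the control as well (mean 12.15, against 6.64 to 7.06 in the foxes). T cell markers were mixed, with 1 of 8 higher on the control and 3 lower (mean 8.0, against 8.08 to 9.01 in the foxes). Of 5 fat markers 2 were higher and 2 lower, with unlike sizes, as FABP4 differed by 9.65 and PLIN1 by -1.04. The mean of the fat list was 9.54 on the control and 7.13 to 7.87 in the foxes. Within fox blood, fewer cells of a type and less RNA per cell cannot be told apart. What tissue the RNA of the control array came from was not tested.

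The control array against the foxes asked where the receptors stood on the array titled a canine control relative to fox blood. All 3 probe sets of RARA and the single probe sets of RXRA and KLF9 were lower on the control, and so were 3 of 4 for THRA. RARB was the largest difference, by 1 of its 3 probe sets, at 5.36-fold higher on the control. THRB had probe sets called in both directions, and RARG had none called. By limma, at a Benjamini-Hochberg adjusted p under 0.05 with all probe sets in the adjustment, 13 of the 27 probe sets were called, in 8 of the 9 genes. Of these, 2 were higher (7.41%) and 11 lower (40.7%), beside 18.9% higher and 42.1% lower of all tested probe sets (61.0% called in all). The median difference was -0.35 over the 27 probe sets and -0.46 over all. All 13 calls were also made in each of the 11 fits that left out a fox. The single control array stayed in all 11, so these fits cannot show how much its values would vary. By probe set with the highest mean, 1 gene was higher, 3 lower and 5 not called, beside 63.2% of all genes called. By the mean of all probe sets of each gene, 1 was higher (RARB) and 5 lower (THRA, RARA, RXRA, RXRB and KLF9). For this count, and for the 8 genes with any probe set called, no share over all genes is given. Without foxes 9, 10 and 11 there were 3 higher and 12 lower probe sets, beside 22.9% and 49.1% of all (72.0% in all). The control lay above every fox for 2 probe sets and below every fox for 14, beside 21.9% and 55.1% of all probe sets (77.0% in all). At 1 array against 11 the lowest p that exact permutation allows is 0.0833, and limma borrows the spread of the control from the foxes.

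**Figure D1:**
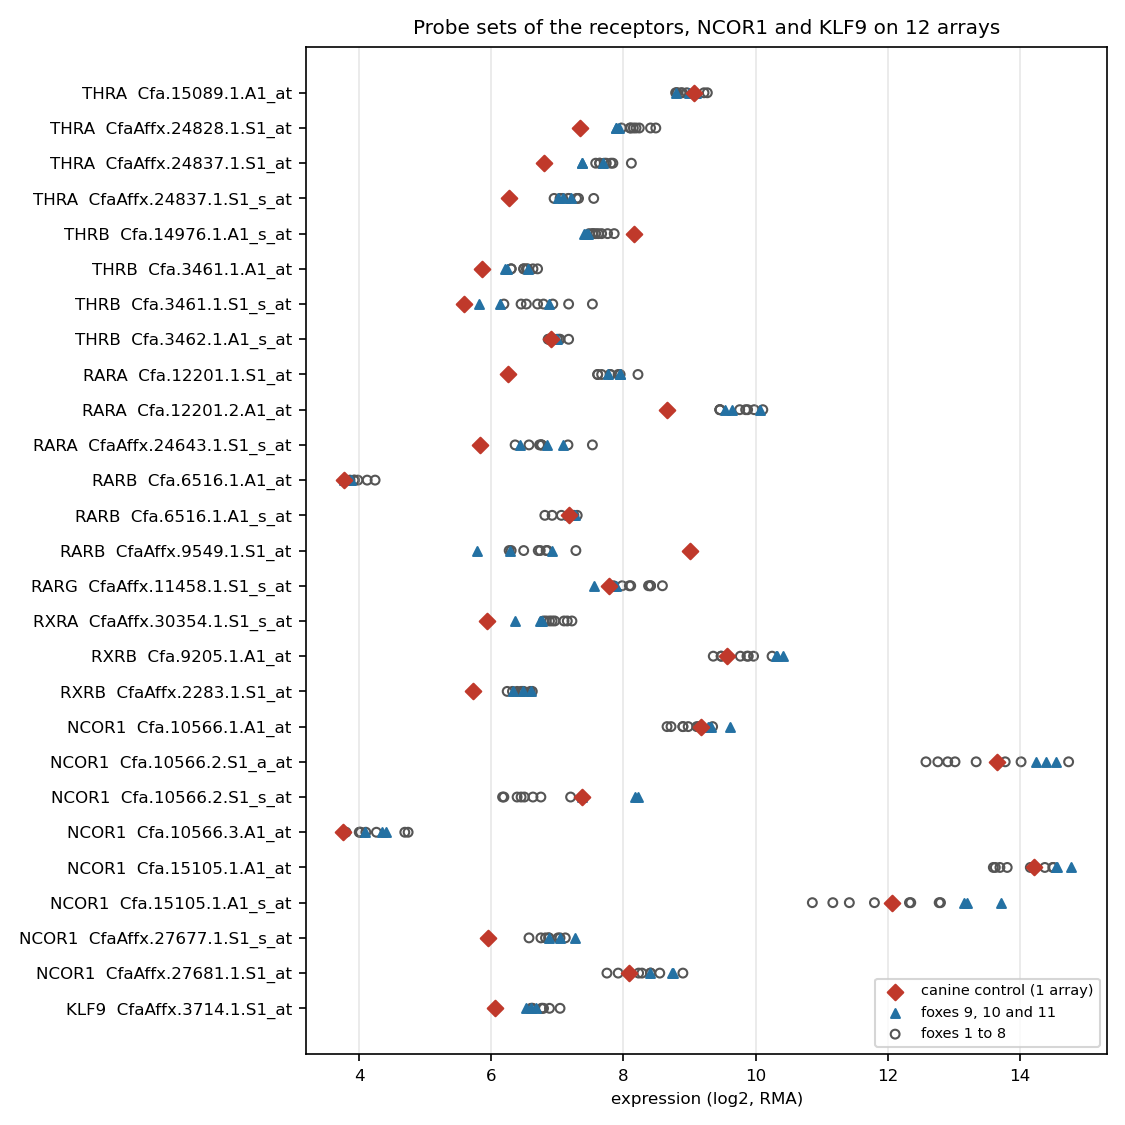
Expression (log2, horizontal axis) of each of the 27 probe sets (rows) on the 12 arrays. Diamonds are the single control array, triangles foxes 9, 10 and 11, and open circles foxes 1 to 8; the control lay below all foxes for the 3 probe sets of RARA (8.66, 6.25 and 5.83) and above all of them for RARB CfaAffx.9549.1.S1_at (9.01).

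THRA encodes the thyroid hormone receptor of heart, bone and brain, and is also known from blood cell precursors. Its probe set with the highest mean, Cfa.15089.1.A1_at, stood at 9.07 on the control and at 8.79, 8.89 and 9.27 in the foxes (lowest, median and highest). The control lay inside the foxes, and the difference of 0.11 (SE 0.19) was not called (adjusted p by limma 0.615). The other 3 probe sets went another way. CfaAffx.24837.1.S1_s_at stood at 6.26 on the control and at 6.95, 7.17 and 7.55 in the foxes, a difference of -0.90 (SE 0.19, adjusted p by limma 0.00155). CfaAffx.24837.1.S1_at stood at 6.80 on the control and at 7.37, 7.69 and 8.12 in the foxes, a difference of -0.88 (SE 0.22, adjusted p by limma 0.00455). For both, the control lay below every fox. CfaAffx.24828.1.S1_at stood at 7.34 on the control and at 7.88, 8.11 and 8.49 in the foxes, a difference of -0.79 that was called (adjusted p by limma 0.00725) but missed the threshold after quantile normalization again (0.0565).

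THRB encodes the receptor that serves liver and the pituitary feedback loop. Cfa.14976.1.A1_s_at, its probe set with the highest mean, stood at 8.16 on the control and at 7.40, 7.54 and 7.86 in the foxes. The control lay above all 11 foxes, by 0.58 (SE 0.16, adjusted p by limma 0.00873). Cfa.3461.1.A1_at went the opposite way, at 5.86 on the control and at 6.20, 6.49 and 6.70 in the foxes (-0.59, adjusted p by limma 0.0144). Centring each array on its median ended that call (adjusted p by limma 0.111). Cfa.3461.1.S1_s_at stood at 5.58 on the control and at 5.81, 6.70 and 7.53 in the foxes. The control lay below all of them, but the difference of -1.07 (SE 0.47) missed the threshold (adjusted p by limma 0.0661). It was called without fox 10, the lowest fox (0.0284), and without foxes 9, 10 and 11 (0.0172). Cfa.3462.1.A1_s_at was almost level, at 6.91 on the control and 6.98 ± 0.09 in the foxes (SD, n = 11).

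RARA, the retinoic acid receptor of granulocyte maturation, had the largest fall. Cfa.12201.1.S1_at stood at 6.25 on the control and at 7.61, 7.80 and 8.22 in the foxes. The difference was -1.59 (SE 0.19), or 3.0-fold, with an adjusted p by limma of 3.11e-05. Cfa.12201.2.A1_at, with the highest mean, stood at 8.66 on the control and at 9.46, 9.76 and 10.11 in the foxes, a difference of -1.09 (SE 0.25, adjusted p by limma 0.00312). CfaAffx.24643.1.S1_s_at stood at 5.83 on the control and at 6.36, 6.76 and 7.53 in the foxes, a difference of -0.99 (SE 0.33, adjusted p by limma 0.0215). The control was below every fox for all 3. The call of the last was lost with centred arrays (0.0802) and after quantile normalization again (0.0843), and the calls of the other 2 were made under both. Most measured neutrophil, monocyte and platelet markers and all measured B cell and erythroid markers were lower on the same array, as given above. Their part in the RARA difference was not tested.

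RARB, a retinoic acid receptor of epithelia that is itself induced by retinoic acid, was read by probe sets that disagreed. CfaAffx.9549.1.S1_at stood at 9.01 on the control and at 5.78, 6.71 and 7.28 in the foxes. The control lay far above all 11 foxes, by 2.42 (SE 0.40, adjusted p by limma 0.000353). Cfa.6516.1.A1_s_at stood at 7.17 on the control and at 6.81, 7.19 and 7.30 in the foxes, with no call (adjusted p by limma 0.900). Cfa.6516.1.A1_at stood at 3.77 on the control and at 3.77 to 4.24 in the foxes, close to the lowest value of the whole table (3.23). RARG, the retinoic acid receptor best known from skin, stood at 7.78 on the control and at 7.55, 8.09 and 8.59 in the foxes, so the control lay inside them (-0.32, SE 0.31, adjusted p by limma 0.391). Intestinal markers and most liver and muscle markers were higher on the control, and their part in the RARB difference was not tested.

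The retinoid X receptors, the shared partners, were lower by 1 probe set each. RXRA stood at 5.94 on the control and at 6.36, 6.88 and 7.22 in the foxes, with the control below all of them. The difference was -0.94 (SE 0.24, adjusted p by limma 0.00556). RXRB CfaAffx.2283.1.S1_at stood at 5.72 on the control and at 6.24, 6.47 and 6.62 in the foxes (-0.73, SE 0.15, adjusted p by limma 0.00162). Its other probe set, Cfa.9205.1.A1_at, stood at 9.57 on the control and at 9.36, 9.89 and 10.42 in the foxes. The control lay inside the foxes there, and the difference of -0.35 (SE 0.36) was not called (adjusted p by limma 0.412), though it was -1.0 and called after quantile normalization again (0.000968).

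NCOR1, the corepressor, was called by 1 of its 8 probe sets. CfaAffx.27677.1.S1_s_at stood at 5.95 on the control and at 6.57, 6.88 and 7.26 in the foxes, all above the control (-0.98, SE 0.20, adjusted p by limma 0.00164). The 7 others had differences between -0.47 and 0.46, and the control lay inside the foxes for 6 of them. The probe set with the highest mean, Cfa.15105.1.A1_at, stood at 14.22 on the control and at 13.60, 14.38 and 14.77 in the foxes. Its difference of 0.03 (SE 0.42) became -0.98 after quantile normalization again (adjusted p by limma 0.960 and 0.00835). That scaling also gave calls for Cfa.10566.2.S1_a_at (-1.13, adjusted p by limma 0.00248) and Cfa.15105.1.A1_s_at (-1.31, 0.00797), so that 4 of the 8 were lower under it. Cfa.10566.2.S1_s_at, inside the foxes with all 11, was higher on the control without foxes 9, 10 and 11 (0.84, adjusted p by limma 0.0325). KLF9, a zinc finger factor that thyroid hormone and glucocorticoids both induce, stood at 6.05 on the control and at 6.52, 6.68 and 7.04 in the foxes. The control was below all of them (-0.67, SE 0.17, adjusted p by limma 0.00538), and the call was lost with centred arrays (0.0552) and after quantile normalization again (0.0608).

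Since most probe sets of the array lay lower on the control, the calls were set against that shift. The median difference of all probe sets was -0.46 as deposited, -0.19 with each array centred on its median and -0.31 after quantile normalization again. Of the 11 lower probe sets 8 were also called with centred arrays and 7 after quantile normalization again. The same 7 passed under all 3 scalings: RARA Cfa.12201.1.S1_at and Cfa.12201.2.A1_at, THRA CfaAffx.24837.1.S1_at and CfaAffx.24837.1.S1_s_at, RXRA, RXRB CfaAffx.2283.1.S1_at and NCOR1 CfaAffx.27677.1.S1_s_at. Both higher probe sets, of THRB and RARB, passed under all 3 as well. Several of these had a mean below that of the median probe set, and a filter on low values left them out. They were THRA CfaAffx.24837.1.S1_s_at, RXRA, RXRB CfaAffx.2283.1.S1_at, NCOR1 CfaAffx.27677.1.S1_s_at and RARB CfaAffx.9549.1.S1_at. With centred arrays 29.6% of the 27 were lower, beside 23.1% of all, and 7.41% higher, beside 21.8% of all (44.9% called in all). After quantile normalization again 40.7% were lower, beside 29.5% of all, and 7.41% higher, beside 18.1% of all (47.5% called in all). Relative to the median of all probe sets as deposited, RARA Cfa.12201.1.S1_at lay lower by -1.13 and RARB CfaAffx.9549.1.S1_at higher by 2.88, while KLF9 lay lower by only -0.21.

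**Figure D2:**
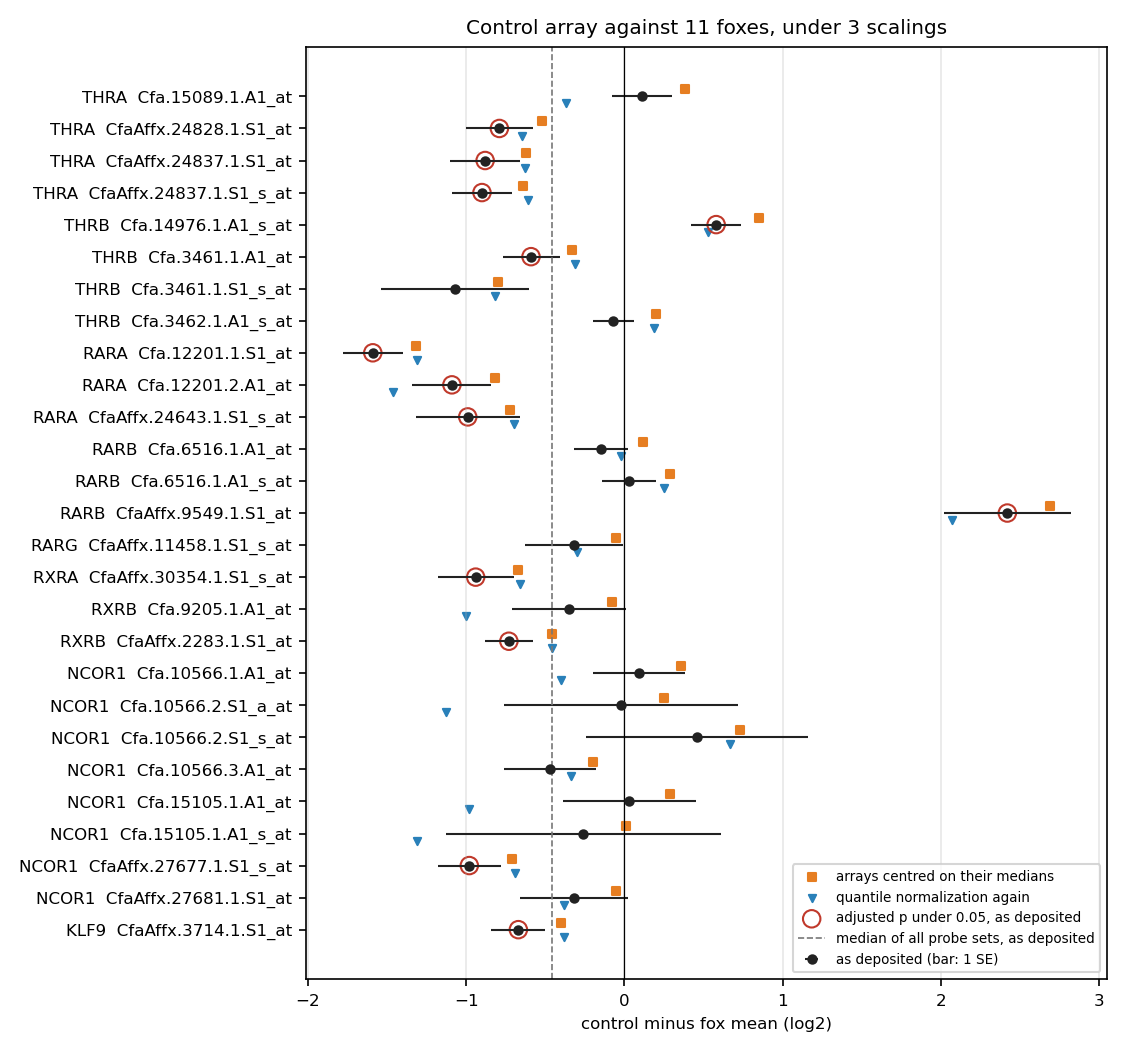
Control minus fox mean (log2, horizontal axis) for the 27 probe sets (rows), as deposited (black points with bars of 1 SE), with arrays centred on their medians (squares) and after quantile normalization again (triangles). Ringed points passed the threshold as deposited; the dashed line is the median of all probe sets (-0.46), and for NCOR1 Cfa.15105.1.A1_at the difference was 0.03 as deposited and -0.98 after quantile normalization again.

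The spread between foxes asked which of these genes differed among the 11 blood samples. Most were even: the median SD was 0.24 over the 27 probe sets, beside 0.22 over all tested probe sets, and the lowest was 0.09 (THRB Cfa.3462.1.A1_s_at). In 3 probe sets (11.1%) the SD was at least 0.5, beside 14.8% of all, and all 3 were of NCOR1. Nearest below it was THRB Cfa.3461.1.S1_s_at at 0.49, with 5.81 in fox 10 and 7.53 in fox 2. Within foxes 1 to 8, 2 of the 27 reached it, beside 3003 of all 42924, and over the 11 foxes 0 of 27 reached an SD of 1, beside 1289 of all 42924. Fox 2 held the highest fox value in 11 of the 27 probe sets (40.7%), beside 20.9% of all tested probe sets. Foxes were not grouped, so none of this is a comparison of exposures.

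NCOR1 Cfa.15105.1.A1_s_at was the most variable. It read 10.86, 12.33, 11.42, 12.80, 11.17, 11.80, 12.35 and 12.78 in foxes 1 to 8, and 13.16, 13.71 and 13.20 in foxes 9, 10 and 11 (12.32 ± 0.91, SD, n = 11). Foxes 9, 10 and 11 were above all others, and foxes 1, 5 and 3 were lowest. Cfa.10566.2.S1_a_at read 12.76, 14.74, 12.91, 14.02, 12.58, 13.02, 13.34 and 13.78 in foxes 1 to 8, and 14.24, 14.55 and 14.40 in foxes 9, 10 and 11 (13.67 ± 0.78, SD, n = 11). Here fox 2 was highest, and foxes 5, 1 and 3 again lowest. Cfa.10566.2.S1_s_at stood at 6.17 to 7.20 in foxes 1 to 8 (SD 0.33), and at 8.22, 8.17 and 7.38 in foxes 9, 10 and 11 (6.91 ± 0.74, SD, n = 11). The spread of the first and second of these probe sets shrank to an SD of 0.35 and 0.23 after quantile normalization again, while the third kept 0.73. Under that scaling the SD was 0.5 or more in 1 of the 27, beside 11.9% of all.

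Foxes 9, 10 and 11 lay above foxes 1 to 8 in 4 of the 27 probe sets (14.8%), beside 12.6% of all. These were 3 of NCOR1, and RXRB Cfa.9205.1.A1_at with 10.31 to 10.42 in the 3 foxes and 9.36 to 10.25 in the others. They lay below foxes 1 to 8 in 3 probe sets (11.1%), beside 14.6% of all. RXRA stood at 6.36 to 6.77 in the 3 foxes and at 6.79 to 7.22 in foxes 1 to 8. THRA CfaAffx.24828.1.S1_at stood at 7.88 to 7.94 and at 7.97 to 8.49 in the same order, and THRB Cfa.14976.1.A1_s_at at 7.40 to 7.46 and at 7.48 to 7.86. After quantile normalization again NCOR1 Cfa.10566.2.S1_s_at was the 1 probe set above (10.1% of all probe sets were), and 3 lay below (14.1% of all), namely THRA CfaAffx.24828.1.S1_at and, newly, THRA Cfa.15089.1.A1_at and RARA Cfa.12201.2.A1_at. RXRA and THRB Cfa.14976.1.A1_s_at no longer lay below. The GAPDH difference and the SD of values set the same 3 foxes apart, as given above, and their part in these patterns was not tested.

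Relations between the genes were computed within foxes 1 to 8 only, because foxes 9, 10 and 11 stood apart. Each gene was read from its probe set with the highest mean, and each of the 36 pairs was tested by a two-sided exact permutation test of Pearson's r with Benjamini-Hochberg adjustment over the 36. RARG and NCOR1 ran opposite to each other over these 8 foxes (r = -0.96, exact permutation p 0.000248, adjusted 0.00893; Spearman's rho -0.98, exact permutation p 0.000397). RARG was highest in fox 5 (8.59) and lowest in fox 2 (7.85), while NCOR1 read 13.63 in fox 5 and 14.51 in fox 2. For NCOR1, foxes 1, 3, 5 and 6 read 13.60 to 13.81 and foxes 2, 4, 7 and 8 read 14.16 to 14.51, with no value between. Leaving out the 2 foxes farthest from the median of RARG gave r = -0.98. No other pair passed the adjustment. RXRB and NCOR1 had r = 0.87 and rho = 0.88 (exact permutation p 0.00652 and 0.00724, adjusted 0.117 and 0.130), with r = 0.90 without the 2 farthest foxes. RARA and RXRB had r = 0.83 and rho = 0.76 (exact permutation p 0.0133 and 0.0368, adjusted 0.160 and 0.183), with r = 0.68 without the 2 farthest. In all 3 pairs (8.33%) had an absolute r of at least 0.8, beside 5.83% of the 135954 pairs of these genes with every other gene.

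The RARG and NCOR1 relation moved with the scale of the arrays. After quantile normalization again its r was 0.51 (exact permutation p 0.188, adjusted 0.699), with the sign turned. Over foxes 1 to 8 the SD over the probe sets of each array correlated with NCOR1 (r = 0.96, rho = 0.90, exact permutation p 0.00174 and 0.00456, adjusted over 9 genes 0.0156 and 0.0205). It also correlated with RARG (r = -0.90, rho = -0.88, exact permutation p 0.00466 and 0.00724, adjusted 0.0210 and 0.0217) and RXRB (r = 0.86, rho = 0.90, exact permutation p 0.0106 and 0.00456, adjusted 0.0319 and 0.0205). Without the 2 arrays farthest from the median SD these r were 0.94, -0.93 and 0.77. RARA passed the adjustment by rho alone (r = 0.73, rho = 0.81, exact permutation p 0.0518 and 0.0218, adjusted 0.117 and 0.049). Its r was 0.54 without the 2 farthest arrays. With 1 of foxes 2, 4, 6, 7 or 8 left out, the adjusted p of RARG and NCOR1 was 0.05 to 0.0571, and r stayed between -0.95 and -0.97.

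**Figure D3:**
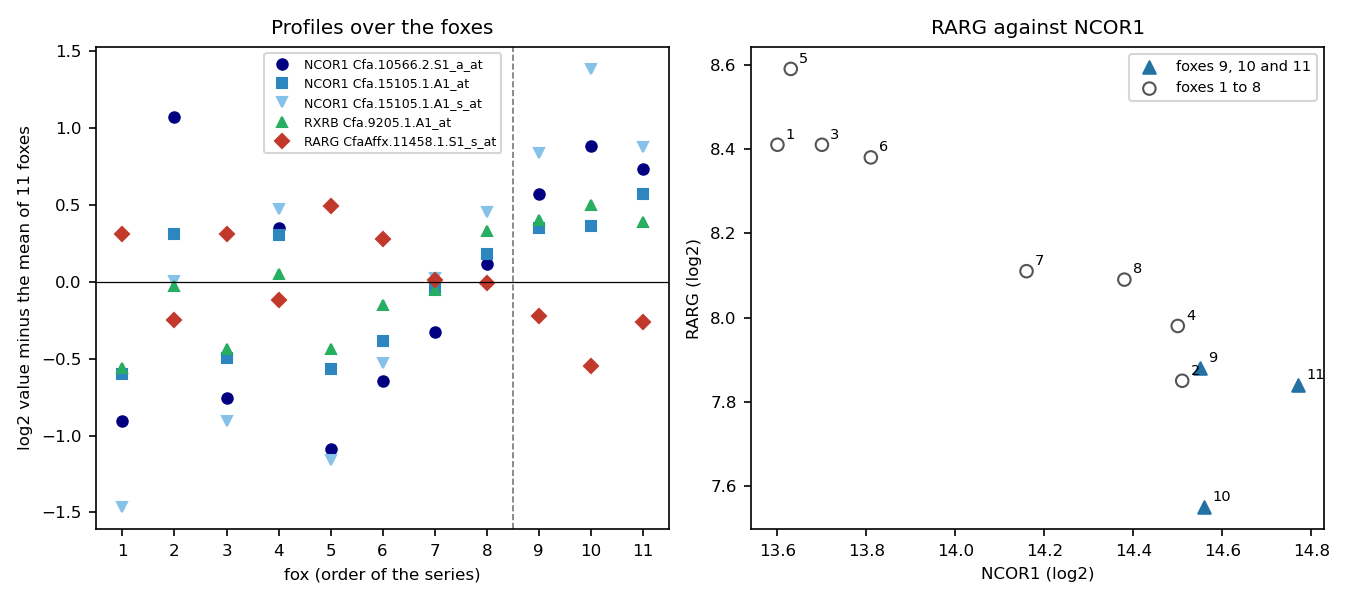
Left, log2 values minus the mean of the 11 foxes for 3 probe sets of NCOR1 and 1 each of RXRB and RARG (vertical axis), by fox (horizontal axis, foxes 9, 10 and 11 right of the dashed line). Right, RARG against NCOR1 (both log2) with each fox numbered; over foxes 1 to 8 r was -0.96 as deposited and 0.51 after quantile normalization again.

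Probe sets of one gene did not always follow each other over foxes 1 to 8. Of 47 such pairs 3 passed a two-sided exact permutation test of r after adjustment over the 47. NCOR1 Cfa.10566.2.S1_a_at and Cfa.15105.1.A1_at had r = 0.94 and rho = 0.98 (exact permutation p 4.96e-05 and 0.000397, adjusted 0.00233 and 0.0187), with r = 0.97 without the 2 farthest foxes. NCOR1 Cfa.15105.1.A1_at and Cfa.15105.1.A1_s_at had r = 0.93 and rho = 0.86 (exact permutation p 0.00298 and 0.0107, adjusted 0.0486 and 0.181), with r = 0.97 without the 2 farthest foxes. RARA Cfa.12201.1.S1_at and CfaAffx.24643.1.S1_s_at had r = 0.90 and rho = 0.69 (exact permutation p 0.00310 and 0.0694, adjusted 0.0486 and 0.466), and r was 0.62 without the 2 farthest foxes, so that relation leans on them. Without fox 1, 3 or 5 the first pair had an adjusted p of 0.0528 to 0.0622 by the same exact permutation test. After quantile normalization again no pair passed, and the smallest adjusted p by exact permutation, of a pair of RARA and a pair of NCOR1, was 0.415.

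The mix of blood cells was set beside the genes in the same way, with lists of neutrophil, monocyte, T cell, B cell, erythroid and platelet markers. None of the 54 relations within foxes 1 to 8 passed the adjustment (13 had an exact permutation p under 0.05 before it), with Pearson's or with Spearman's correlation. NCOR1 and the neutrophil list had r = 0.87 and rho = 0.95 (exact permutation p 0.00516 and 0.00114, adjusted 0.162 and 0.0603), and r = 0.82 without the 2 farthest foxes. RARG and the neutrophil list had r = -0.85 and rho = -0.93 (exact permutation p 0.00821 and 0.00223, adjusted 0.162 and 0.0603), and r = -0.76 without the 2 farthest foxes. Neutrophils did not stand alone. For NCOR1, r was 0.85 with platelet, 0.85 with monocyte, 0.76 with erythroid, 0.54 with T cell and -0.53 with B cell markers. For RARG these r were -0.84, -0.78, -0.69, -0.53 and 0.58 in the same order. Both genes also correlated with the SD of the arrays, as given above (r = 0.96 for NCOR1 and -0.9 for RARG). The part of that SD in these relations was not tested. THRA and the erythroid list had r = 0.79 and rho = 0.81 (exact permutation p 0.0184 and 0.0218, adjusted 0.162 and 0.196), and r = 0.77 without the 2 farthest foxes. Only 3 of 8 erythroid markers were measured, ALAS2, SLC4A1 and EPB42.

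The genes most like the 3 most variable members were looked for by the root mean square difference of fox-centred log2 values over the 11 foxes, among 2760 other genes with an SD of at least 0.5. Nearest to NCOR1 (SD 0.43 by its probe set with the highest mean) were CARS1, which charges tRNA with cysteine, at 0.14, the adaptor protein YWHAB at 0.16 and PABPC1, which binds the poly(A) tail of mRNA, at 0.16. Nearest to RXRB (SD 0.37) were ACAP2, a regulator of membrane traffic, at 0.19, the chromatin remodeller subunit INO80D at 0.19 and again CARS1 at 0.19. Nearest to RARG (SD 0.32) were ICA1 at 0.20, MAP3K7CL at 0.22 and the pigment cell protein PMEL at 0.23. All of these values are log2 differences between centred profiles, not levels.

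Around the receptors, 82 genes of the pathway were listed in 7 groups, of which 75 were measured. On the control 17 were higher and 32 lower, and 26 were not called, beside 18.5% higher and 44.6% lower of all 15115 genes. With centred arrays 18 were higher and 15 lower, beside 21.0% and 26.0% of all genes. The largest differences were all higher on the control. Intestinal markers and most liver and muscle markers were also higher on that array, as given above, and their part in these differences was not tested.

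Among 11 thyroid hormone handling genes 4 were higher and 4 lower. The plasma carrier TTR stood at 13.48 on the control and at 5.92, 6.18 and 6.45 in the foxes, a difference of 7.31 (SE 0.17, adjusted p by limma 4.27e-12). The deiodinase DIO1, which activates thyroid hormone in liver, stood at 10.84 on the control and at 4.60, 5.0 and 5.16 in the foxes (5.92, SE 0.20). The membrane transporter SLC16A10 differed by 2.50 and SERPINA7, the thyroxine-binding globulin of plasma, by 1.17. The control lay above all foxes for these 4 genes. Among 19 retinoid handling genes 3 were higher and 7 lower. RBP2, the retinol carrier of intestinal cells, stood at 14.93 on the control and at 6.25, 6.39 and 6.91 in the foxes (8.46, SE 0.21). The plasma retinol carrier RBP4 differed by 7.07 and ALDH1A1, which makes retinoic acid, by 5.32. CYP26A1, which breaks retinoic acid down and is induced by it, was lower, at 6.03 on the control and 6.70, 7.33 and 7.56 in the foxes (-1.23, SE 0.27, adjusted p by limma 0.00218).

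Of 9 measured corepressor genes 1 was higher and 3 lower. CORO2A, a subunit of the NCOR complex, stood at 7.43 on the control and at 5.84, 6.03 and 6.15 in the foxes (1.42, SE 0.13, adjusted p by limma 1.48e-06). The scaffold SIN3A was lower, by -0.92 (SE 0.16). TBL1X, another subunit of the NCOR complex, differed by -1.53 (SE 0.74) and was not called (adjusted p by limma 0.0899). It was called after quantile normalization again (adjusted p by limma 1.52e-08). Its homologue TBL1XR1 differed by -0.89 and was not called (adjusted p by limma 0.0700), except without foxes 9, 10 and 11. Between foxes, 4 of the 9 had an SD of at least 0.5, beside 18.3% of all genes, among them TBL1X with 12.15 to 14.43. After quantile normalization again 0 of the 9 did, beside 13.5% of all genes. Of 10 coactivator genes 1 was higher and 6 lower. The acetyltransferase KAT2B differed by 1.73 (SE 0.37) and the acetyltransferase CREBBP by -2.07 (SE 0.79, adjusted p by limma 0.0384), a call lost with centred arrays (0.0857). PPARGC1B, a coactivator of energy metabolism, differed by -1.02. The coactivator NCOA6 differed by 1.19 with no call (adjusted p by limma 0.157), though it was called without foxes 9, 10 and 11.

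Of 11 measured partner receptors of RXR and its relatives 4 were higher and 6 lower. NR1H4, the bile acid receptor of liver and gut, stood at 13.06 on the control and at 5.71, 6.30 and 6.59 in the foxes (6.78, SE 0.29). The fatty acid receptors PPARG and PPARA differed by 2.73 and 1.73, and the hepatic drug sensor NR1I3 by 1.60. With centred arrays 4 of these receptors were higher and 2 lower. Among 8 thyroid hormone targets 2 were higher and 4 lower, with PCK1 of gluconeogenesis at 4.66 and the calcium pump ATP2A2 at 4.02. CPT1A, the gate of fatty acid entry into mitochondria, differed by 2.25 and was not called (adjusted p by limma 0.0935), with 7.54 to 10.69 in the foxes. Without foxes 9, 10 and 11 it was called. MBP, a myelin protein, differed by -0.93, a call lost with centred arrays (adjusted p by limma 0.0700). Among 7 retinoid targets 2 were higher and 2 lower. The retinoic acid responders RARRES1 and RARRES2 differed by 3.85 and 2.25. PRAM1, a signalling adaptor of neutrophils that retinoic acid induces, stood at 6.89 on the control and at 8.59, 10.03 and 12.71 in the foxes (-3.40, SE 1.27, adjusted p by limma 0.0352), a call lost with centred arrays (0.0656). CEBPE, a factor of granulocyte maturation, was lower by -1.05 (SE 0.18, adjusted p by limma 0.000501).

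**Figure D4:**
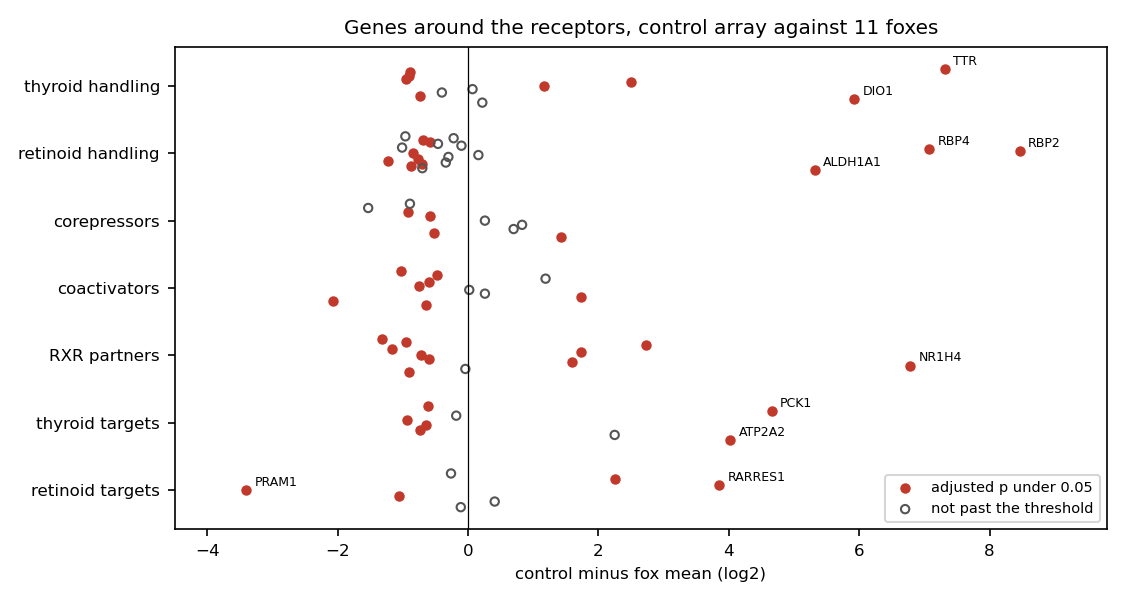
Control minus fox mean (log2, horizontal axis) for the 75 measured pathway genes in their 7 groups (rows; height within a row only separates the points). Filled points passed the adjusted p threshold of 0.05 and open points did not; the named genes at the far right are RBP2 (8.46), TTR (7.31), RBP4 (7.07) and NR1H4 (6.78).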

How the data were processed

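Fox blood RNA, and 1 sample titled a canine control, were measured on Affymetrix Canine Genome 2.0 arrays. The deposited values are log2 values per probe set. The submitters' processing notes name RMA and Affymetrix Expression Console, without a version, and no source says if all 12 arrays entered 1 RMA run. Of 43035 probe sets, with no detection call, 111 were controls used for array quality alone, and limma ran on 42924. By the annotation of the probes 29254 had 1 gene symbol (15115 genes), 439 several and 13231 none. Probe and protein sequences were not used here.

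The members and lists were chosen with earlier results of these data known. The control was compared with the foxes by limma 3.58.1 (lmFit and eBayes; R 4.3.3), with Benjamini-Hochberg adjustment over all tested probe sets. A gene was read from the probe set of the highest mean value on the 12 arrays, and every probe set of the 9 genes was reported. Named pathway genes were the up to 4 per list with the largest absolute difference. Correlations used exact permutation over 8 foxes (Python 3.11.15). The limma step was tested on simulated data. Labels gave no batch, and p-values measure only the spread between these samples. The number of arrays limits the precision.

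Alternatives were a filter on low values, quantile normalization again, centring, trend and robust settings, a log2 difference of at least 1, the fox range as the criterion, a gene's mean over its probe sets, other measures of spread, Spearman's correlation, each fox left out, and foxes 9, 10 and 11 left out. Added after seeing the data were the relations between probe sets of one gene, those with the SD of an array, and leaving out fox 2 with foxes 9, 10 and 11.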

Additional observations from a re-analysis of the deposited data

How the results depend on the processing

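No paired analysis was possible because the control group holds 1 array, so the groups share fewer than 2 replicate numbers. Of the 27 probe sets, 2 higher and 11 lower calls became 1 and 4 with low-level probe sets left out, when 14 of the 27 remained. No share over all probe sets is given for that filter, so these counts cannot be set against it. The calls became 1 and 2 with an absolute difference of at least 1, beside 15.5% higher and 12.1% lower of all probe sets (27.5% in all). Leaving out single foxes gave 2 higher and 11 to 12 lower. The pathway counts of 17 higher and 32 lower became 6 higher with low-level probe sets left out, 15 lower with centred arrays and 7 lower with a difference of at least 1, and ran from 17 to 18 higher and 29 to 34 lower without single foxes. Shares over all genes are given above for centred arrays, and not for the other settings of these pathway counts. For single genes by their leading probe set, the difference turned sign after quantile normalization again for THRA (-0.37) and NCOR1 (-0.98), and with the mean of all probe sets for THRA (-0.62), THRB (-0.29) and NCOR1 (-0.18). That mean gave calls for THRA (adjusted p by limma 0.00284), RARB (0.77, 0.00231) and RXRB (-0.54, 0.0417), and ended that of THRB (0.176). It also turned without fox 6 for RARB (-0.01), and for NCOR1 without fox 1 (-0.03), 3 (-0.02), 5 (-0.03) or 6 (-0.01), the values without a fox all near 0 (ranges without single foxes -0.01 to 0.04 for RARB and -0.03 to 0.08 for NCOR1). The cause was not tested. The 3 probe sets with an SD of at least 0.5 became 1 after quantile normalization again, 0 at an SD of 1 and 8 by an interquartile range of 0.5, and 3 to 4 without single foxes. The 1 called pair of genes became 0 after quantile normalization again and 0 to 1 without single foxes. No relation with a blood cell list was called in any setting. The 3 called pairs of probe sets became 1 by Spearman's correlation, 0 after quantile normalization again and 0 to 3 without single foxes. With no detection call, low values such as those of RARB Cfa.6516.1.A1_at have no floor.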
